A study of Homo sapiens with 22 samples.

Results

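The chromatin domains described here carried the repressive mark H3K27me3 in CHLA10 and not in A673, both established lines of Ewing sarcoma, a tumour of bone and soft tissue. They were chosen from the first CHLA10 H3K27me3 library as broad peaks on chromosomes 1 to 22 that were at least 5000 bp long. Each also had to overlap a peak of the second CHLA10 H3K27me3 library and no peak of either A673 H3K27me3 library. The rule took 3616 of the 10850 domains of that length, or 33.3%, out of 38450 peaks in the list. Of the other domains, 5207 overlapped both A673 lists and are called the domains of both lines below, 1374 overlapped 1 A673 list, and 653 were not found in the second CHLA10 library. The choice used the H3K27me3 calls of all 4 libraries, so these calls, and the length and strength of the domains, are given as a description with no test.

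CUT&RUN, which releases and sequences the chromatin fragments bound by an antibody, was run with antibodies against HOXD13, 4 histone marks and IgG in 22 libraries of the 2 lines. Histone marks were profiled in A673 shNS and CHLA10 shNS cells, with 2 libraries per mark and line, and the labels do not spell out shNS or state a treatment. HOXD13 was profiled in 1 library per line, in cells without that label, so a HOXD13 peak and a histone peak come from differently labelled cells. The lines were grown in different media, and line and medium cannot be told apart. The series title places EWS-FLI1, the fusion protein that drives this tumour, and HOXD13 in the control of tumour cell plasticity. Only called peaks were deposited, so every value below counts calls and the sequencing depth of a library is unknown. Whether 2 libraries of a line came from separate cultures is not stated, and a spread between them may be technical.

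H3K27me3 is placed by the Polycomb repressive complex PRC2 and covers developmental genes that a cell type keeps silent. H3K27ac marks active promoters and enhancers and cannot sit on the same lysine as H3K27me3, H3K4me1 marks enhancers, and H3K4me3 marks promoters, where it can coexist with H3K27me3 in the state called bivalent. HOXD13 is a homeobox factor of limb and posterior development. The question the comparison answers is which active marks and HOXD13 peaks A673 had at the sites that CHLA10 kept under H3K27me3.

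Promoter sequences show how unlike the gene starts in these domains were. They are the 250 bases before the annotated start, 5′ to 3′ on the gene's own strand, from RefSeq on GRCh38.p14, and capitals mark CG pairs, the sites of DNA methylation that are dense in CpG islands. The first 3 genes had H3K4me3 in both lines. They were PTGS2, the inducible cyclooxygenase, at chr1:186680424-186680673 on the minus strand, KCNA2, a neuronal potassium channel, at chr1:110606359-110606608 on the minus strand, and TMEM59L, a brain membrane protein, at chr19:18612620-18612869 on the plus strand. GAP43, a growth cone protein, at chr3:115623260-115623509 on the plus strand, had H3K4me3 in A673 alone. OR5A2, an olfactory receptor, at chr11:59426414-59426663 on the minus strand, and CCDC182, at chr17:57745300-57745549 on the minus strand, lay in domains with strong A673 HOXD13 peaks and no H3K4me3.
PTGS2: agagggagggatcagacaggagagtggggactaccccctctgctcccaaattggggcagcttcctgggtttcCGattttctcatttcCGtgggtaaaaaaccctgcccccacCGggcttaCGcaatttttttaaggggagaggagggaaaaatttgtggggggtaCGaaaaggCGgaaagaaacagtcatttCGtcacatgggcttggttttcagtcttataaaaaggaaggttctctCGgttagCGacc
KCNA2: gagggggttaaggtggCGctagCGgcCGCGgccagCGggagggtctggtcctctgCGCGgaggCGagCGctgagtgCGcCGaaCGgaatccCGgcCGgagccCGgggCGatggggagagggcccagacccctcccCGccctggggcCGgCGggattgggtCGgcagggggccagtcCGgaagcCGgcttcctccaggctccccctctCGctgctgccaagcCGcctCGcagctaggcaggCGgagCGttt
TMEM59L: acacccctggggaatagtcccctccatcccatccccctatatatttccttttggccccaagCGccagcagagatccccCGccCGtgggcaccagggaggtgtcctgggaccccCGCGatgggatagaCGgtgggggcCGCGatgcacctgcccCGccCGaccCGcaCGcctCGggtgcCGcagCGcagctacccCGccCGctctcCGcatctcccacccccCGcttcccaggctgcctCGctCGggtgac
GAP43: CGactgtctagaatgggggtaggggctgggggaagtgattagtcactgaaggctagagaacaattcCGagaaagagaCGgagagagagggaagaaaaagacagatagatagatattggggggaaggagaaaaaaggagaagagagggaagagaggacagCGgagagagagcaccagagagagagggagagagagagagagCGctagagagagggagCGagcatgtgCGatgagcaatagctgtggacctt
OR5A2: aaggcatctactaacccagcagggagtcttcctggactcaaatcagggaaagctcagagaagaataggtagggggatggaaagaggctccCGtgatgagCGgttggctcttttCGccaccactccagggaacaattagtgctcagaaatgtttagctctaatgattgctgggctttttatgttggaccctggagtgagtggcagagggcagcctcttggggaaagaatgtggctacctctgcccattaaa
CCDC182: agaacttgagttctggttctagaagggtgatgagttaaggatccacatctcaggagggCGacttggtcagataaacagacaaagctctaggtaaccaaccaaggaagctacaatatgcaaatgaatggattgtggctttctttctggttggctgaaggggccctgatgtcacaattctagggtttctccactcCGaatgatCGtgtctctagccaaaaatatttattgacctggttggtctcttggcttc
These windows held 9 CG pairs at PTGS2, 27 at KCNA2, 21 at TMEM59L and 7 at GAP43. The windows of the HOXD13 domains held 3 at OR5A2 and 3 at CCDC182.

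The domains were shorter and weaker than those of both lines. Their median length was 6767 bp, with quartiles at 5690 and 8719 bp, and 577 of them reached 10 kb, against 1741 of the 5207 domains of both lines. Together they covered 28.4 Mb. The authors' fold enrichment over the caller's background had a median of 4.02 and the −log10 q a median of 3.19, and in the domains of both lines these medians were 4.25 and 3.57. Peaks of the second CHLA10 library covered a median of 72.4% of a domain. The 3 shortest domains were 5000, 5002 and 5002 bp long, and the 3 longest left out by length were 4999, 4999 and 4998 bp, with fold enrichments of 3.96 to 4.13 inside and 3.49 to 3.87 outside.

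An A673 H3K27me3 peak lay within 10 kb of 1079 domains (29.8%), within 50 kb of 59.8% and within 100 kb of 72.3%. The 2 A673 H3K27me3 lists kept 24.2% and 12.2% of their highest peak number and the 2 CHLA10 lists 17.8% and 19.5%, by a criterion that is not stated, so a domain without an A673 peak may still have H3K27me3 that was not listed. The strongest domains lay in TTC34, a gene of unclear function near the end of chromosome 1. Of these, chr1:2651367-2700242 (48.9 kb) had a fold enrichment of 9.53 in the first and 9.62 in the second CHLA10 library and held no A673 active mark or HOXD13 peak. The longest domain, 112.0 kb at chr8:85714602-85826573, held none either. NTM, a neural adhesion molecule, carried the second longest, chr11:131448678-131507271 (58.6 kb), with 5 A673 H3K4me1 peaks in the first and 1 in the second library.

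In A673, most of these domains showed no called active mark. Of the 3616, 2810 (77.7%) had no H3K4me1, H3K27ac or H3K4me3 peak in any of the 6 A673 libraries, against 70.0% of all 10850 CHLA10 domains and 61.8% of the domains of both lines. At least 1 of the marks was in both of its libraries in 247 (6.83%), against 11% of all domains. H3K4me1 was in 560 domains (15.5%) by the first library and in 254 (7.02%) by the second, and H3K27ac in 188 (5.20%) and 249 (6.89%). Over all 10850 domains, the same shares were 19.1% and 7.48% for H3K4me1 and 6.30% and 8.95% for H3K27ac, so the domains of CHLA10 only were not richer in these A673 marks than CHLA10 domains in general. The means over the libraries were 11.3% ± 5.98 for H3K4me1 and 6.04% ± 1.19 for H3K27ac (SD, n = 2). The H3K4me1 libraries differed from each other by a factor that also showed in the whole lists, of 104244 and 42268 peaks.

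In CHLA10 itself, the same domains were nearly bare of enhancer marks. H3K27ac peaks were in 9 domains (0.249%) by the first library and in 1 (0.0277%) by the second, and no domain had both, against 0.267% and 0.0276% of all domains. A count of 0 of 3616 allows a share of up to 0.0830%. H3K4me1 was in 27 (0.747%) and 25 (0.691%) domains, against 1.08% and 1.02% of all domains, and 2 domains had it in both libraries, against 0.138% of all domains. The mean share was 43.7 times higher in A673 than in CHLA10 for H3K27ac and 15.7 times higher for H3K4me1, and all A673 libraries were above all CHLA10 libraries. The exact permutation test, two-sided, gave p = 0.333 for each mark, which is the smallest p that 2 libraries against 2 allow. With every list of a mark cut to the length of the shortest, the A673 mean shares were 2.68% for H3K27ac and 2.86% for H3K4me1, against 0.0415% and 0.705% in CHLA10. With full lists, all 10850 domains had A673 mean shares of 7.63% for H3K27ac and 13.3% for H3K4me1, against 0.147% and 1.05% in CHLA10. A wide gap between the lines was therefore not particular to the domains of CHLA10 only.

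H3K4me3, the promoter mark, was in under 2% of the domains in both lines. It was in 50 (1.38%) and 48 (1.33%) domains by the A673 libraries and in 54 (1.49%) and 57 (1.58%) by the CHLA10 libraries, a mean of 1.36% ± 0.0391 against 1.53% ± 0.0587 (SD, n = 2 each; exact permutation test, two-sided, p = 0.333). That p is again the smallest the design allows, and the direction was not stable. With the upper 50% of each list by −log10 q, A673 had it in 0.456% and CHLA10 in 0.180%, with lists cut to the shortest 1.33% and 1.13%, and the sign also turned with a minimum length of 2 kb and without the first CHLA10 library. Both CHLA10 libraries had it in 40 domains (1.11%), against 3.79% of all domains. Of all domains, 6.27% and 6.16% had A673 H3K4me3 and 5.08% and 4.84% had CHLA10 H3K4me3. In the domains of both lines the mean shares were 11.1% ± 0.0815 and 8.39% ± 0.353. Per Mb of domain, midpoints of A673 H3K4me3 peaks numbered 1.21 in the domains of CHLA10 only and 9.30 in the domains of both lines. These are the same libraries over other regions, and regions are not replicates, so the gap has no test; it was larger than the spread between libraries.

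**Figure D1:**
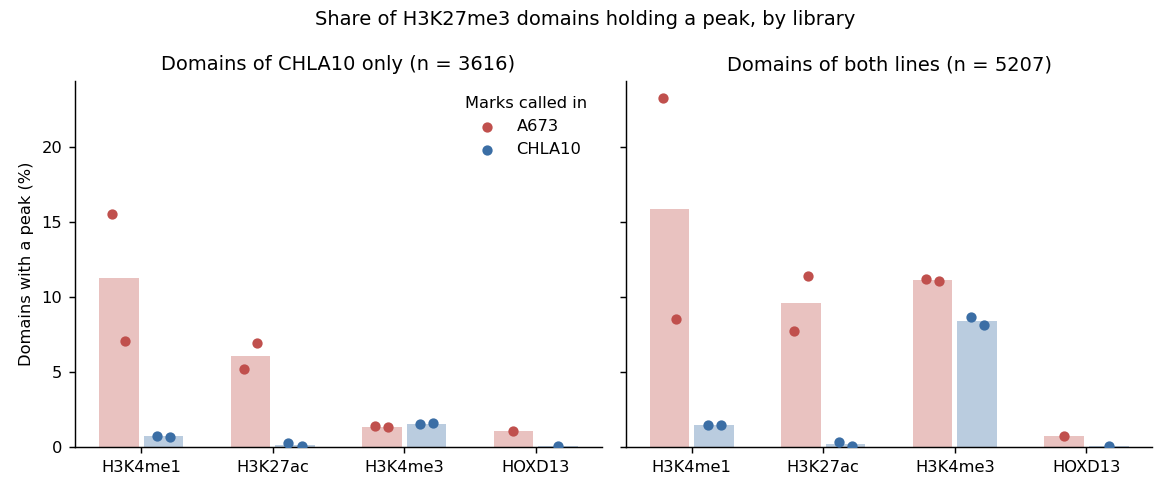
Share of H3K27me3 domains (%) that held a peak of each mark or of HOXD13, in domains of CHLA10 only (left, n = 3616) and of both lines (right, n = 5207). Points are libraries, with 2 per histone mark and line and 1 for HOXD13, and bars are their means; A673 H3K27ac points lie at 5.20% and 6.89% on the left, where CHLA10 points lie at 0.249% and 0.0277%.

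The surroundings of the domains put the A673 marks in scale. Peak midpoints of A673 H3K27ac numbered 6.79 and 9.32 per Mb inside the domains, 6.54 and 8.41 per Mb within 10 kb outside, and 6.91 and 8.85 per Mb at 100 to 110 kb. A673 H3K4me1 numbered 23.1 and 9.08 per Mb inside, 21.8 and 8.74 within 10 kb, and 23.5 and 9.38 at 100 kb. Inside over 100 kb, the ratio was 0.982 and 1.05 for H3K27ac and 0.984 and 0.968 for H3K4me1. In A673, the domains of CHLA10 only thus held these marks at about the density of the regions around them. CHLA10 H3K27ac numbered 0.317 and 0.0352 per Mb inside against 4.05 and 2.28 at 100 kb, a ratio of 0.0781 and 0.0154. For CHLA10 H3K4me1 the mean ratio was 0.325. Without the 294 domains that had no A673 peak of any list within 100 kb, the mean ratios for A673 were 1.03 for H3K27ac and 0.98 for H3K4me1.

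In the domains of both lines, where A673 had H3K27me3 too, its called H3K27ac and H3K4me1 peaks were on average denser than in the domains of CHLA10 only. For H3K4me1 this held in the first library (29.7 against 23.1 per Mb) and not in the second (8.97 against 9.08). The domains of CHLA10 only held 8.06 H3K27ac and 16.1 H3K4me1 peaks per Mb on average. In the domains of both lines, A673 H3K27ac numbered 10.4 per Mb inside, 8.98 within 10 kb outside and 12.7 at 100 kb on average. A673 H3K4me1 numbered 19.3, 18.4 and 23.6 there. The inside was thus sparser than the regions at 100 kb, with ratios of 0.814 and 0.771. It was not sparser than the first 10 kb outside, where the mean ratios were 1.15 and 1.02. The A673 H3K27ac peaks in the domains of CHLA10 only were weak, with median −log10 q of 4.97 and 3.43 against 5.91 and 4.39 for the whole lists. Of them, 17.9% of the first library's and 13.7% of the second library's were found in the other library. For H3K4me1 these shares were 26.0% and 60.7%, and for H3K4me3 89.8% and 84.0%. In the domains of both lines, H3K27ac had 9.26% and 6.16% and H3K4me1 15.4% and 48.5%. The H3K27ac median −log10 q there was 4.08 and 3.43. Over the 28.4 Mb of CHLA10 only, 36 and 37 H3K27ac peaks and 183 and 173 H3K4me1 peaks were found in the other library. Over the 52.6 Mb of both lines, these were 41 and 41, and 249 and 242. The higher density was thus not seen among peaks found in the other library. The 9 CHLA10 H3K27ac peaks of the first library and the 1 of the second were never found in the other.

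**Figure D2:**
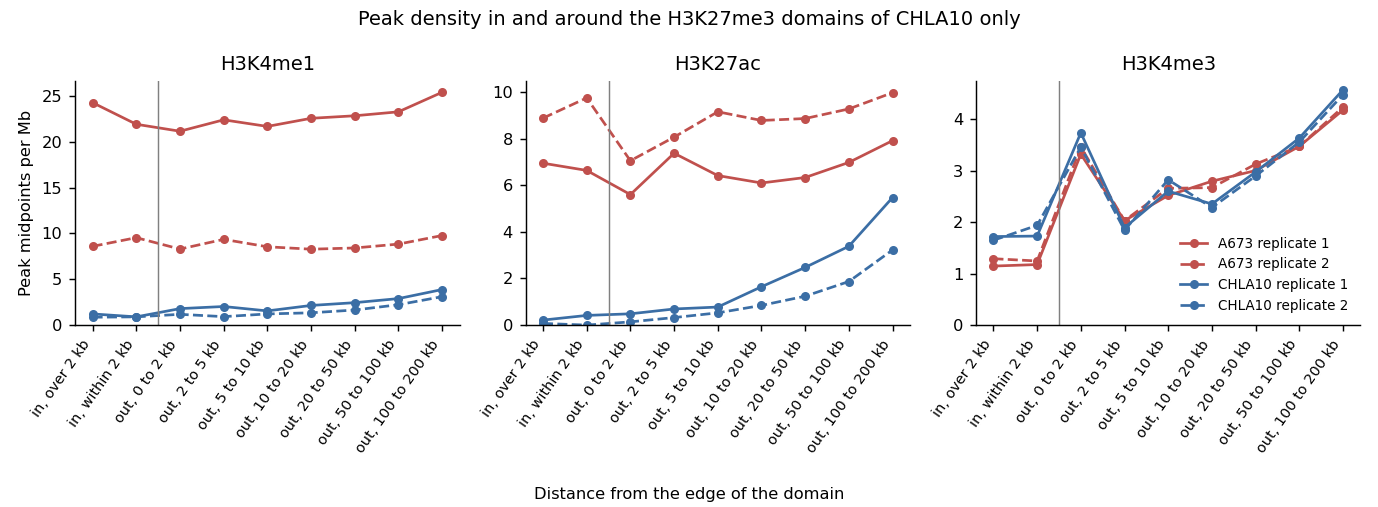
Peak midpoints per Mb (y axis) for H3K4me1, H3K27ac and H3K4me3 by distance from the edge of the domains of CHLA10 only (x axis; the vertical line is the edge), with 1 line per library. CHLA10 H3K27ac climbs from 0.215 and 0.0716 per Mb over 2 kb inside the edge to 5.47 and 3.22 in the outermost zone, A673 H3K27ac shows no such slope, and H3K4me3 steps in both lines from under 2 per Mb inside to between 3.32 and 3.73 in the first 2 kb outside.

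Length went with the share of domains holding an A673 mark. Of the 1203 domains under 6 kb, a mean of 8.60% held H3K4me1, 4.74% H3K27ac and 0.998% H3K4me3 in A673, and of the 318 domains of 12 kb or more, 18.9%, 10.8% and 3.62%. Per Mb, H3K27ac numbered 9.06 in the shortest and 7.83 in the longest domains and H3K4me1 18.1 and 17.4. The longest domains thus did not hold H3K27ac or H3K4me1 more densely. H3K4me3 numbered 1.83 per Mb in the shortest, 1.21 in those of 8 to 12 kb and 2.45 in the longest. HOXD13 was in 1.16% of the shortest and 1.26% of the longest domains, which was 2.13 peaks per Mb in the shortest and 0.754 in the longest.

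A domain counted for both A673 libraries held a peak of each, anywhere in the domain, and these peaks need not overlap. Of the A673 H3K27ac peaks, 36 of 201 in the first library and 37 of 271 in the second were found in the other. The counts and patterns below therefore describe domains and not single sites. H3K4me1 was in both A673 libraries in 197 domains (5.45%, 95% Clopper-Pearson interval 4.73 to 6.24), against 5.74% of all 10850 domains, H3K27ac in 66 (1.83%, 1.41 to 2.32), against 2.03%, and H3K4me3 in 42 (1.16%, 0.838 to 1.57), against 5.59%. These intervals cover counting error only. H3K27ac and H3K4me1 in both libraries with H3K4me3 in neither, the pattern of an enhancer, was in 33 domains (0.913%), against 0.654% of all domains. H3K4me1 in both libraries without any other active mark, the pattern called primed, was in 82 (2.27%), against 2.24%. None of the 66 domains with A673 H3K27ac in both libraries had CHLA10 H3K27ac in either. Only 10 of the 3616 domains (0.277%) had CHLA10 H3K27ac in either library, against 0.295% of all domains, so this absence says little.

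Of the 10 domains with the strongest A673 H3K27ac, 6 lay between genes. In the domain chr6:169842001-169852357, 60.4 kb from ERMARD, the −log10 q was 24.1 and 18.0 for H3K27ac and 22.5 and 21.4 for H3K4me1, with no CHLA10 active mark. A domain 58.9 kb from FICD, an enzyme of the endoplasmic reticulum, had H3K27ac at 26.6 and 9.71 (chr12:108444775-108456381). A domain 443 kb from PSAT1, a serine synthesis enzyme, had 20.9 and 11.5 (chr9:78773519-78778945). A domain within ADAMTS12, a matrix metalloproteinase, had 13.5 and 10.3 (chr5:33804184-33809398). All 4 also had H3K4me1 in both A673 libraries and no active mark in CHLA10.

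A673 H3K4me1 was strongest at ABTB3, ADGRB1 and RAPGEF5. ABTB3, a gene with ankyrin repeats, had a domain 77.4 kb away (chr12:107235150-107241038) with H3K4me1 at −log10 q of 47.8 and 34.6, H3K27ac at 11.9 and 8.93 and a HOXD13 peak at 11.1. A second, within the gene (chr12:107356084-107377312), had H3K4me1 at 60.2 and 32.1. ADGRB1, an adhesion receptor of brain, had 65.5 and 33.7 with H3K4me3 at 60.1 and 39.1 (chr8:142505203-142510374). LEMD1 and KRT78, the latter an epithelial keratin, had H3K4me1 in both libraries without H3K27ac or H3K4me3.

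All 3 active marks in both A673 libraries were found in 5 domains (0.138%), against 0.240% of all domains, at KCNA2, SERTAD4, HHAT, PPFIBP2 and TMEM59L. TMEM59L (chr19:18607640-18614118, 6.48 kb) had H3K4me3 at −log10 q of 240 and 151, H3K27ac at 28.9 and 24.1 and H3K4me1 at 28.5 and 39.5. Its CHLA10 H3K4me3 was at 8.60 and 5.92. KCNA2 (chr1:110593872-110611588, 17.7 kb) had H3K4me3 at 190 and 139 in A673 and at 9.82 and 10.8 in CHLA10. HHAT, the acyltransferase of hedgehog ligands, had the weakest H3K4me3 of the 5, at 2.19 and 2.71, beside a HOXD13 peak at 6.05, and no CHLA10 mark. The −log10 q depends on depth as well as enrichment, so its values are not compared between lines.

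H3K4me3 of both libraries was in both lines in 23 domains (0.636%), against 2.97% of all domains. It was in A673 with neither CHLA10 library in 14 (0.387%), against 1.46%, and in CHLA10 with neither A673 library in 16 (0.442%), against 0.599%. The A673 group, set apart after its values were seen, held TMEM233, SALL1, DAB1, ADGRB1, PTPN18, CBFA2T3, SLC35F4, CACNA1I, GAP43, CADM1, RAPGEF5, VWA5A, NR2F2 and HHAT as overlapped or nearest genes. An overlap of 1 bp was enough, and at RAPGEF5 most of each H3K4me3 peak lay outside the domain. With at least 50% of the peak inside, the mean A673 H3K4me3 share of all the domains of CHLA10 only was 0.926%, against 1.36%. TMEM233, a membrane protein gene, was the strongest (chr12:119590538-119596436, 5.90 kb). It had H3K4me3 at −log10 q of 295 and 250 and fold enrichments of 54.9 and 53.2, H3K27ac at 16.8 and 3.01, and a HOXD13 peak at 19.8, while its CHLA10 H3K27me3 had fold enrichments of 4.68 and 6.01. SALL1, a zinc finger regulator of organ development, had H3K4me3 at 204 and 182 (chr16:51142292-51150773). DAB1, a reelin pathway adaptor of neurons, had a domain with 163 and 131 in A673 and none in CHLA10 (chr1:58247443-58253979) and another with H3K4me3 in both lines (chr1:57417804-57426823).

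**Figure D3:**
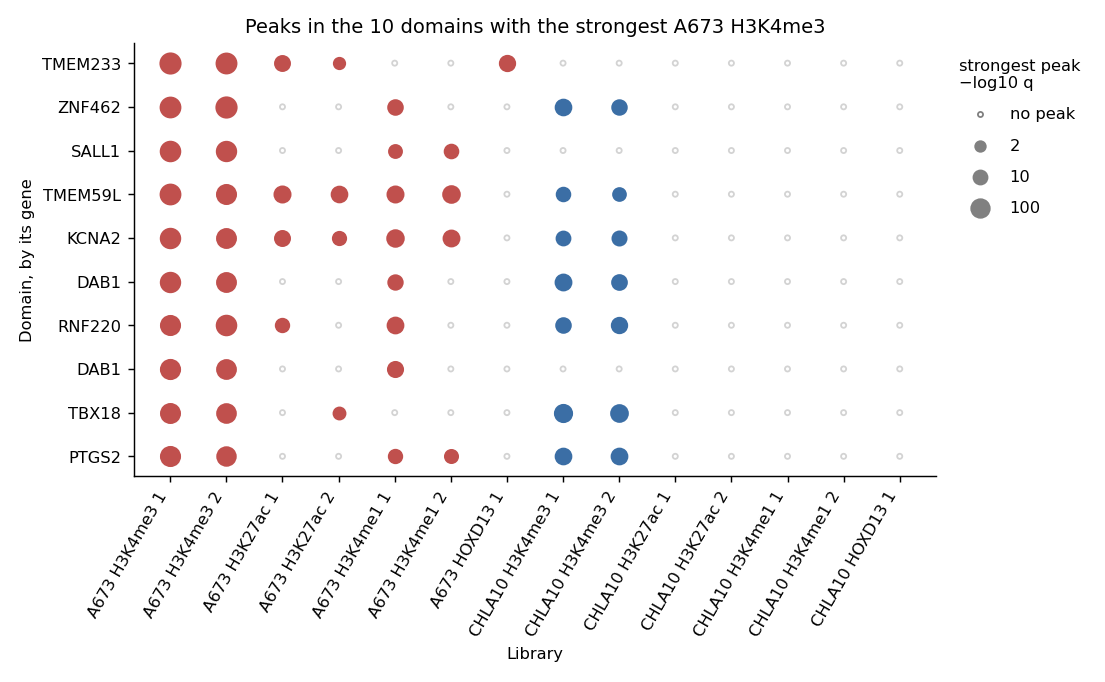
Peaks in the 10 domains with the strongest A673 H3K4me3 (rows, by the gene at or nearest to the domain) in each of the 14 libraries of active marks and HOXD13 (columns; A673 red, CHLA10 blue). Dot size grows with the −log10 q of the strongest peak and open dots mark no peak; TMEM233, SALL1 and 1 of the DAB1 domains have H3K4me3 in A673 and none in CHLA10.

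Gene starts in the domains of CHLA10 only were also counted, with strand known. H3K4me3 in both libraries of a line and neither of the other was at 1 gene for A673 and 5 for CHLA10. RefSeq promoter entries matched 15101 of 19126 protein-coding genes, and 134 of them (0.887%) had a start inside a domain of CHLA10 only, against 607 (4.02%) for the domains of both lines. Within 1 kb of such a start, H3K4me3 of both libraries was found at 12 of the 134 genes (8.96%) in A673 and at 14 (10.4%) in CHLA10, against 68.6% and 68.5% of all genes. In the domains of both lines these shares were 35.9% and 25.5%. ARHGAP24, CXCL3, DAB1, KCNA2, PLCXD3, PPFIBP2, PTGS2, RNF220 and TMEM59L had it in both lines, and GAP43 in A673 with neither CHLA10 library. EPHA6, PCDH15, SYT10, VSTM2A and VSTM2B, among them an ephrin receptor, a protocadherin and a synaptotagmin, had it in CHLA10 and in neither A673 library. PTGS2, printed above, had A673 H3K4me3 at −log10 q of 156 and 109 and CHLA10 H3K4me3 at 24.4 and 25.1 (chr1:186679909-186685802).

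Promoters in the domains of CHLA10 only were poor in CG pairs. Over 165 annotated starts, the median ratio of observed to expected CG pairs in the 300 bases from 250 before to 50 after the start was 0.290, against 0.535 for 792 starts in the domains of both lines and 0.743 for all 21156 starts. A ratio of at least 0.6 was reached by 27.9%, 45.8% and 62.6%. The homeobox core CAATAAA, searched on both strands, was in 11 of the 165 promoters (6.67%), in 3.03% of those of the domains of both lines and in 2.93% of all promoters. The paired ETS core GGAAGGAA, searched the same way, was in 3.03%, 3.03% and 3.66%. CCDC182 is among the 11 with CAATAAA, as are PRAMEF7, PRAMEF8 and PRAMEF33, which share a family name. The median GC content was 55% in the 165 promoters, 58.3% in those of the domains of both lines and 62.7% in all. Whether base composition accounts for the CAATAAA shares was not tested. A match is letters in this window and not a bound site.

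A673 HOXD13 peaks were in 38 of the domains (1.05%, 95% Clopper-Pearson interval 0.745 to 1.44), against 0.756% of all CHLA10 domains and 0.730% (0.517 to 1.00) of the domains of both lines. The 39 peaks made 1.37 per Mb, against 0.741 per Mb in the domains of both lines. Around the domains of CHLA10 only, HOXD13 peak midpoints numbered 1.45 per Mb within 10 kb and 1.55 at 100 kb, and the density inside was 0.886 of the value at 100 kb. The peaks lay toward the edges, with 2.00 per Mb within 2 kb inside an edge and 0.716 per Mb deeper. In the domains of both lines the inside was 0.415 of the value at 100 kb, with 0.720 per Mb within 2 kb of an edge and 0.755 deeper. There is 1 A673 HOXD13 library and so no replicate check of these values. CHLA10 HOXD13 was in 1 domain (0.0277%, against 0.0369% of all), within LGR6, an R-spondin receptor, with 2 peaks of −log10 q up to 14.6. None of the 39 A673 peaks overlapped a CHLA10 HOXD13 peak, against 1 of 39 in the domains of both lines and 513 of all 7047 A673 HOXD13 peaks.

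Most of the domains with a HOXD13 peak also held A673 H3K4me1. Of the 38 domains, 32 had H3K4me1 in either A673 library and 25 in both, 20 had H3K27ac in either and 5 had no active mark. Over all 10850 domains, 20.8% had A673 H3K4me1 in either library and 5.74% in both. H3K27ac was in 13.2% of these by either library, and 70.0% had no active mark. At the peak itself, 25 of 39 (64.1%) overlapped an A673 H3K4me1 peak of either library, against 41.0% of the 39 HOXD13 peaks in the domains of both lines and 47.2% of all 7047 A673 HOXD13 peaks. For H3K27ac these shares were 30.8%, 5.13% and 23.8%, and only 1 of the 39 overlapped H3K27ac in both libraries. H3K4me1 of both libraries was overlapped by 14 of the 39 (35.9%), against 17.9% in the domains of both lines and 25.0% of all 7047. The 39 peaks had a median −log10 q of 12.8, against 14.4 for the whole list.

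The strongest of the 39 HOXD13 peaks in the domains, chr7:22120577-22120993, lay within RAPGEF5, an exchange factor of small GTPases. It had a −log10 q of 52.8 and a fold enrichment of 23.8. CCDC182 followed with 40.1, 2.36 kb from the gene, and OR5A2 with 34.9, on the gene boundary and its printed promoter. TACR1, the substance P receptor, was 77.2 kb from a peak of 30.7 that overlapped H3K4me1 and H3K27ac in both A673 libraries. This peak is the 1 of the 39 with H3K27ac in both libraries. DLGAP1, a postsynaptic scaffold gene, held a peak of 28.9, and ARHGAP24 held 1 of 28.5. FOXI3, an ectodermal forkhead factor, was 116 kb from a peak of 27.9. The domain in FTCDNL1 held a HOXD13 peak of 26.1 and no active mark.

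Below these, the peaks ran down to a −log10 q of 3.49 within HS3ST3B1, a heparan sulfate sulfotransferase. NR2F2, a nuclear receptor of mesenchymal development, was the nearest gene, 609 kb away, to a peak of 23.4. EPHB1, an ephrin receptor, held a peak of 18.7, SOX5, a regulator of cartilage and neurons, 13.9, and SVEP1, an extracellular matrix protein, 16.4. MEGF11 held 2 peaks, of 24.3 and 7.12, in a domain with H3K27ac in both A673 libraries at 10.1 and 6.49. CYP19A1, the aromatase gene, held a peak of 8.04.

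RAPGEF5 lay in one of the stretches richest in A673 marks, and stretches of like size at DLG2, NXPE2 and TENM4 held at most 3 A673 H3K4me1 peaks in a library and no HOXD13 peak. On chromosome 7, 16 of the domains lay within 50 kb of each other over 299 kb (chr7:22111066-22410271). The first CHLA10 H3K27me3 library had 33 peaks there and the second 27, and neither A673 library had any. A673 H3K4me1 had 31 and 14 peaks, H3K27ac 8 and 11, H3K4me3 2 and 1, and HOXD13 3. These counts cover the whole 299 kb, gaps between the domains included. The HOXD13 peak with a −log10 q of 52.8 lay in a domain, and those of 7.12 and 114 lay in gaps. CHLA10 had 1 H3K4me1 peak in the first library and no other active mark or HOXD13 peak in this stretch.

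**Figure D4:**
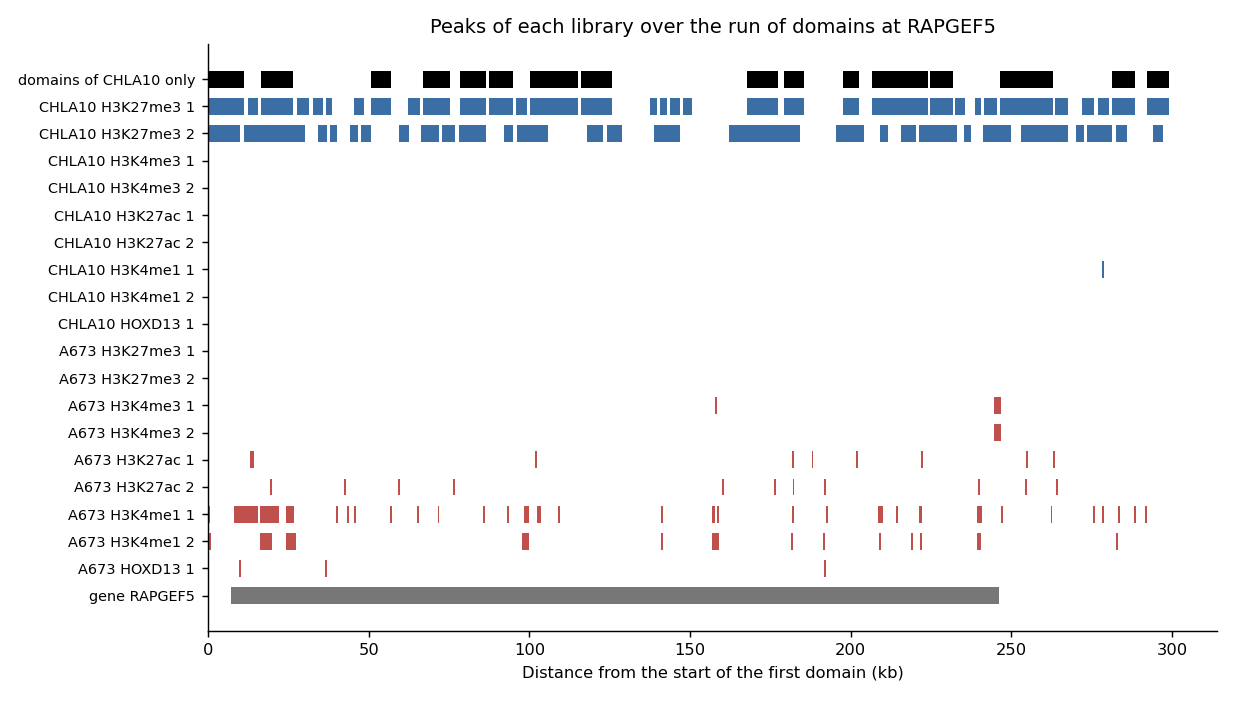
Peaks of each library over the 299 kb run of 16 domains at RAPGEF5, drawn to scale by distance in kb from the start of the first domain. CHLA10 rows (blue) hold H3K27me3 and 1 H3K4me1 peak, A673 rows (red) hold H3K4me1, H3K27ac, H3K4me3 and 3 HOXD13 peaks and no H3K27me3; black bars are the domains and the grey bar is the gene.

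Most stretches were shorter. Joined within 50 kb, the domains formed 1852 stretches, of which 1185 held 1 domain and the largest 28. Chromosome 11 held both stretches of 28, chr11:80816551-81508479 with FAM181B as the nearest gene and chr11:100499034-101104437 at ARHGAP42 and PGR, the progesterone receptor. Peaks of a stretch are counted over its whole span, gaps between domains included. The stretch near FAM181B held 3 A673 HOXD13 peaks and 17 and 5 A673 H3K4me1 peaks. Its HOXD13 peak inside a domain had a −log10 q of 15.7. A stretch of 17 on chromosome 19 covered the leukocyte receptor genes LILR and KIR and held 1 H3K27ac peak in each A673 library and no H3K4me1. A stretch of 18 at ABTB3 held 11 and 15 A673 H3K27ac peaks and no CHLA10 H3K27ac.

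Chromosome 11 carried 574 of the domains, 15.9% of them and 42.3% of its 1358 CHLA10 domains. On chromosome 4 the share was 52.1%, and on chromosome 13 it was 16.7%, 3 of 18. On chromosome 11 A673 H3K27me3 peaks covered 0.546 of the length that CHLA10 peaks covered, on chromosome 8 0.594, and on chromosome 13 6.34 times the length. The ratio did not track the share of domains of CHLA10 only on every chromosome. It was lowest on chromosome 20, at 0.521, where the share was 30.7%, and it was 0.983 on chromosome 4. Without chromosome 11 the A673 shares were 11.8% for H3K4me1, 6.56% for H3K27ac, 1.43% for H3K4me3 and 1.12% for HOXD13.

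**Figure D5:**
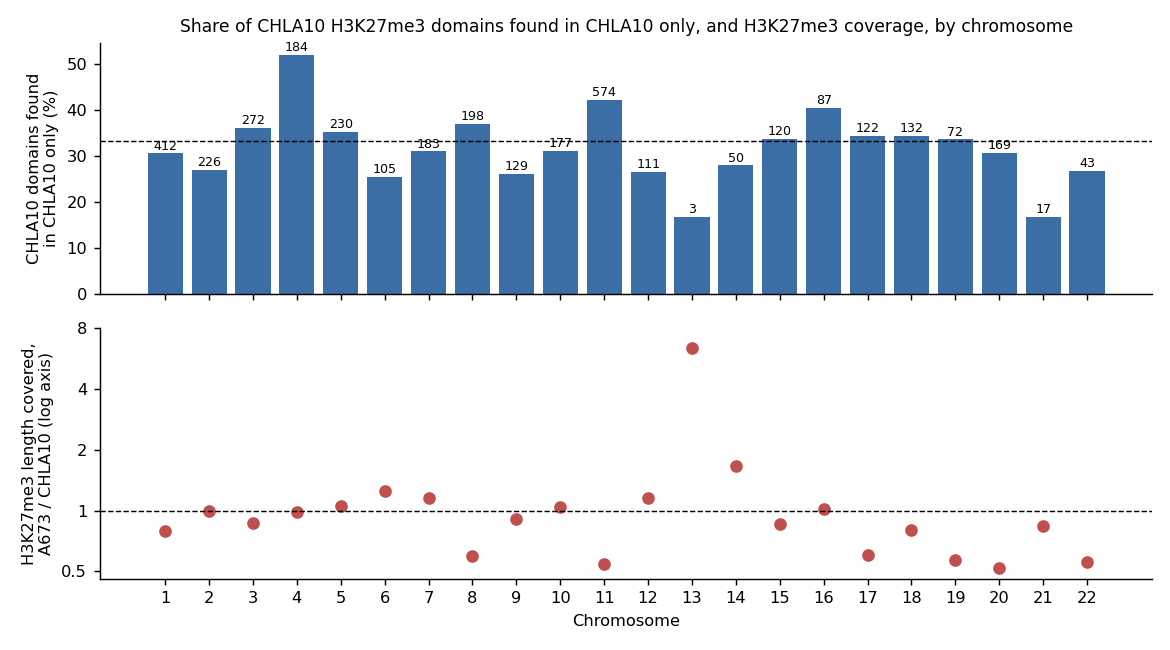
Share of CHLA10 H3K27me3 domains found in CHLA10 only by chromosome (top, %; numbers are domains, the dashed line is 33.3%) and length covered by A673 over CHLA10 H3K27me3 peaks, as means of 2 libraries per line (bottom, log axis). Chromosome 4 has the highest share, chromosome 11 the most domains, and chromosome 13 the highest length ratio, 6.34.

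Some domains lay where A673 had no peak at all. Of the 3616, 294 (8.13%) had no A673 peak of any of the 9 lists within 100 kb. By active marks and HOXD13 alone, 15.3% of the domains had no A673 peak within 100 kb, against 2.78% of the domains of both lines, and 33.8% had none in CHLA10. The run with the most of these, 16 domains over 1.53 Mb, was chr18:77294169-78824508. Others were at IRX1 and at IRX2, homeobox regulators on chromosome 5, at IKZF1, DDC, GRB10 and COBL on chromosome 7, and at CXCL12 on chromosome 10.

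Relative to genes, 250 domains (6.91%) held a gene boundary, 1227 (33.9%) lay within a gene and 2139 (59.2%) between genes, a median of 129 kb from the nearest. In the domains of both lines these were 16.6%, 32.7% and 50.7%. A673 H3K27ac was in 10.0% and 14.4% of the domains with a boundary and in 3.83% and 4.82% of those between genes. HOXD13 was in 21 of the 1227 domains within genes (1.71%) and in 12 of the 2139 between them (0.561%).

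Developmental regulators are the usual content of Polycomb domains. Of 19126 protein-coding genes, 254 (1.33%) had a boundary in a domain of CHLA10 only and 869 (4.54%) in a domain of both lines. Of 94 homeobox genes outside the HOX clusters, 4 (4.26%) had one in a domain of CHLA10 only (BARX2, IRX1, IRX2 and LMX1B), against 28 (29.8%) in the domains of both lines. PAX5, a B cell regulator, was 1 of 46 PAX, SOX, FOX and TBX genes (2.17%), SALL3 1 of 42 (2.38%) neural bHLH and zinc finger regulators, SLC17A6, a vesicular glutamate transporter, 1 of 49 neuronal genes and KRT5, a basal keratin, 1 of 35 epithelial genes. No boundary of the 39 HOX genes, 69 WNT, BMP, TGF-beta, FGF and hedgehog signals, 49 mesenchymal and EWS-FLI1 repressed genes, 32 EWS-FLI1 activated genes or 28 GATA, cardiac and endoderm regulators was in a domain of CHLA10 only. The domains of both lines held 8, 18, 0, 1 and 7 of these. GATA4 and FEV, an ETS factor, had CHLA10 domains that overlapped peaks of both A673 lists. Over the gene itself, A673 had 2 H3K27me3 peaks in each library at GATA4. At FEV each CHLA10 library had 1 over the gene and A673 had none. SHOX lies on the X chromosome, outside the rule.

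BARX2 had promoter marks in both lines, with H3K4me3 at −log10 q of 90.7 and 90.9 in A673 and 41.0 and 35.6 in CHLA10 (chr11:129368708-129375465, 6.76 kb). The domains at IRX1 (13.8 kb), SALL3 (7.35 kb) and SLC17A6 (5.78 kb) held no A673 or CHLA10 active mark. That at IRX2 (20.0 kb) held 1 CHLA10 H3K4me3 peak at 3.74. KRT5 had H3K4me1 in 1 A673 library, PAX5 had H3K27ac and H3K4me1 in the first, and LMX1B had H3K27ac in the second. BARHL2, a homeobox gene outside the lists, had H3K27ac at 16.8 and 23.3 and H3K4me3 at 103 and 188 in A673, and H3K4me3 at 32.1 and 28.0 in CHLA10 (chr1:90703720-90716717).

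MicroRNA hairpins from RefSeq (GRCh38.p14) overlapped these domains in 13 cases of 1461. The 3 mature sequences below, chosen after the values were seen because the microRNAs are well studied, are printed 5′ to 3′ with the seed, bases 2 to 8, in capitals.
miR-429: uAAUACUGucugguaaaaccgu
miR-208a-3p: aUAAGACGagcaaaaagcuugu
miR-488-3p: uUGAAAGGcuauuucuugguc
MIR429, of the miR-200 family of epithelial cells, lay in a 9.61 kb domain (chr1:1168567-1178180) with H3K4me1 in both A673 libraries. MIR208A, a microRNA of heart muscle, lay in a 6.21 kb domain (chr14:23383216-23389429) with H3K27ac in both A673 libraries. MIR488 lay in a 5.66 kb domain (chr1:177028393-177034055) with no active mark in either line. The 3 seeds differ from each other.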

How the data were processed

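The authors deposited 18 peak lists, 1 per library; the 4 IgG libraries were not analysed here. Per the submitters' processing notes, the tools were Bowtie2, MACS2, SEACR 1.2 and bedtools and the build was hg38; what each tool did is not given in the sources used here. Per the file headers (peak names), HOXD13, H3K27ac, H3K4me1 and H3K4me3 were called as narrow peaks against IgG and H3K27me3 as broad peaks without a control. Each deposited peak has a fold enrichment (a ratio over the caller's background), −log10 p and −log10 q values and a score, all by the authors; the score was not used further. Peaks were called per library.

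Overlap meant at least 1 bp, and densities used peak midpoints. Shares have 95% intervals by Clopper-Pearson for counting error alone. Lines were compared with the exact permutation test over libraries (scipy 1.17.1, with pandas 2.3.3 and numpy 2.4.6). Overlap code was tested on simulated intervals. Genes came from RefSeq, with promoter and microRNA sequences. Named are the 5 longest and 5 strongest domains, the 10 with the highest −log10 q for A673 HOXD13, up to 5 for CHLA10 HOXD13 and the 10 for each A673 mark (lower rank of both libraries), every domain with all 3 marks, genes of 14 lists and genes named in earlier results. The domains, lists and rules were chosen with earlier results of these data known. Alternatives changed the length, the overlap, the lists and the libraries used. The sequence under HOXD13 peaks was not analysed here.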

Additional observations from a re-analysis of the deposited data

How the results depend on the processing

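The number of domains was 13356 with a minimum length of 2 kb and 577 with 10 kb, and 2537 to 4620 under the other settings. A673 H3K4me3 was in 0.861% of domains at 2 kb, 2.77% at 10 kb, 1.40% with 50% of the domain covered by the second CHLA10 library, 1.53% with the CHLA10 H3K27me3 lists cut to the shorter A673 list, 0.456% with the upper 50% of each mark list, 0.926% with 50% of the peak inside, 1.48% without domains that lack any A673 peak within 100 kb and 1.43% without chromosome 11. A673 H3K27ac was in 3.49% at 2 kb, 10.1% at 10 kb, 2.41% with the upper 50% of the lists and 2.68% with all lists of a mark cut to the shortest. A673 H3K4me1 was in 5.21% and 2.86% under those last 2 settings. A673 HOXD13 was in 0.517% at 2 kb, 0.470% with the upper 50% and 0.304% with lists cut to the shortest. Leaving out 1 library of a line at a time gave 1.30% to 1.73% for H3K4me3, 5.00% to 6.70% for H3K27ac, 6.72% to 15.5% for H3K4me1, 0.887% to 1.12% for HOXD13 and 3986 to 4620 domains. A cut by length also changes the bases counted per domain, and a cut by list the peaks counted. The cause of these changes and of the others was not tested. The settings without domains that lack A673 peaks and without chromosome 11, the block and the line differences were chosen after seeing the data. With the replicate number as a block, a pairing that the labels do not back, the A673 minus CHLA10 difference was 5.90 points for H3K27ac, 10.5 for H3K4me1 and -0.180 for H3K4me3, each with p = 0.5 by the exact paired permutation test, the smallest that 2 pairs allow. The H3K4me3 difference turned to 0.0449 points at 2 kb, 0.277 with the upper 50% of the lists, 0.194 with lists cut to the shortest and 0.0834 without the first CHLA10 library, and ranged from -0.188 to 0.0834 when 1 library was left out. The differences for H3K27ac (4.87 to 6.57) and H3K4me1 (6.03 to 14.8) kept their sign there. In every setting the A673 share was above the CHLA10 share for H3K27ac, H3K4me1 and HOXD13. The lists hold no read counts, so the limit set by depth is unknown.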

Other observations

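Keratin genes were picked out after their values were seen and carry no test. Of 16 domains at or nearest to a keratin gene, 12 held an A673 active mark or HOXD13 peak in any library, 4 held an active mark in both of its libraries and 4 held none. Of all 3616 domains, 2805 (77.6%) held none and 247 (6.83%) held an active mark in both of its libraries. At KRT78 the A673 H3K4me1 had a −log10 q of 36.4 and 30.5, and an A673 HOXD13 peak at 17.5 lay 13.7 kb from KRT76.

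In the reverse case, 2936 A673 domains lacked CHLA10 H3K27me3 under the same rule with the lines exchanged. There CHLA10 H3K27ac numbered 7.69 per Mb inside and 11.1 at 100 kb, a ratio of 0.675, where CHLA10 had 0.0468 in the domains of CHLA10 only.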
